A study of Mus musculus with 6 samples.

Results

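Sleeve gastrectomy was compared with sham surgery in mice kept on a high-fat diet, using the single-cell libraries labelled HFD VSG and HFD sham. The comparison took 4 libraries, a crypt library and a villus library for each operation, and read every gene as the ratio of its level after vertical sleeve gastrectomy (VSG) to its level after sham surgery within each fraction. After barcodes with fewer than 750 detected genes or with more than 20% of their unique molecular identifiers (UMIs, the tags that mark single mRNA molecules) from mitochondrial genes were removed, these 4 libraries held 17530 of the 26696 barcodes of the series. Of the 32285 genes in the count matrices, 11287 had enough UMIs to be compared. Sprr2a3 and Pla2g4c were higher after VSG in both fractions under all 12 alternatives that changed the libraries, and so, with some processing choices taking them below 2-fold, were Duoxa2, Duox2 and the cholesterol synthesis genes Mvd and Fdps. Gm42418, Scd1, Slc13a1, Akr1c19 and Gsta2 were at least 2-fold lower under the same 12. The other alpha-class glutathione S-transferases, Akr1c genes and Ces1 carboxylesterases were lower in both fractions too. Past 2-fold were 2 of 4 Akr1c and 3 of 4 Ces1 genes, beside 0.292% of all genes past it downward. Several of the calls in these families, chosen after their values were seen, were lost under some alternatives.

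The animals were male wildtype C57BL/6J mice about 30 weeks old. HFD sham and HFD VSG mice ate a diet with 60% of its energy from fat for 16 weeks before surgery, returned to it afterwards, and gave tissue 5 weeks after the operation and an overnight fast. LFD sham mice, given here only for reference levels, ate a diet with 10% of its energy from fat. The jejunal epithelium was detached with EDTA and scraping and split into villi and crypts over a 70 µm strainer, and each suspension pooled 3 HFD sham, 2 HFD VSG or 3 LFD sham mice before 10x Genomics 3′ sequencing. Because each operation is represented by 1 pool of mice, and its crypt and villus libraries came from that same pool, no test of surgery was possible: mouse-to-mouse variation, the pool and the operation cannot be told apart. The intervals given below are 95% exact intervals of a ratio of 2 counts and cover counting error only.

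The small intestinal epithelium is rebuilt continuously from Lgr5-expressing stem cells at the crypt base. Their dividing progeny move upward and mature into absorptive enterocytes or into goblet, Paneth, enteroendocrine and tuft cells, and enterocytes take up sugars, peptides and fat and carry a large set of enzymes that oxidise, conjugate and export foreign compounds. VSG removes most of the stomach along its greater curvature and leaves the intestine in place, so that the jejunum meets faster gastric emptying and altered bile and nutrient flow. The epithelial surface also answers to bacteria, among other ways through the dual oxidases, which release hydrogen peroxide into the lumen.

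The libraries differed before any gene was compared. HFD VSG libraries were deeper, with 86524926 UMIs over 5232 passing barcodes in crypts and 144932811 UMIs over 4697 in villi, against 38767388 over 3286 and 58204859 over 4315 in HFD sham. The median passing barcode held 11262 and 13032 UMIs in the HFD sham crypt and villus libraries and 16733.5 and 30895 in the HFD VSG ones. Between 35.3% and 35.9% of called barcodes passed in HFD sham and 52.0% to 60.5% in HFD VSG, and pairs of libraries shared 3 to 8 passing barcode sequences. The fraction labels went against their markers: in every group, HFD sham, HFD VSG and LFD sham alike, the library labelled villi had a higher summed level of Paneth, stem and cycling markers and a lower one of enterocyte markers than the library labelled crypts. The libraries are therefore called by their labels here, with no position along the crypt-villus axis read from them. Erythroid genes were at 0 CPM in both crypt libraries and at 0.0172 in HFD sham villi but at 57.9 in HFD VSG villi. Stromal markers summed to 2.50 to 9.85 CPM over the 4 libraries, and pancreas and stomach markers to 15.9 to 22.5.

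The cell makeup also differed between operations, mainly in the libraries labelled villi. Classes were ranges of the UMI share taken by fixed marker lists, with limits set after the data were seen, so a class is a gated set of barcodes and not a cell type. Immune-gated barcodes were 5 of 4315 in HFD sham villi and 623 of 4697 in HFD VSG villi, or 0.116% and 13.3%, whereas in crypts they went from 2.68% in sham to 1.53% after VSG. The stem and cycling gate held 3.29% of barcodes in HFD sham crypts and 5.26% in HFD VSG crypts, a log2 ratio of 0.68 [0.35, 1.01], and 6.67% and 18.6% in villi, 1.48 [1.28, 1.67]. Enterocyte-gated barcodes made up 81.7% and 79.6% of the crypt libraries but 55.0% of HFD sham villi and 22.4% of HFD VSG villi. Paneth-gated barcodes took 1.00% and 0.860% in crypts, and 6.30% and 1.28% in villi, a log2 ratio of -2.30 [-2.73, -1.89]. In villi they held a median of 7592 UMIs in HFD sham and 38818.5 in HFD VSG. With at least 1500 genes a barcode their villus shares were 3.63% and 1.09%. In HFD sham villi 272 barcodes were past the Paneth limit, and 89 lay within 1.5-fold of it on either side. Tuft-gated barcodes were 0.396% and 0.554% in crypts and 1.67% and 0.703% in villi, a villus log2 ratio of -1.25 [-1.89, -0.63]. The goblet share was 7.97% and 6.43% in villi, and the goblet mucin Muc2 stood at 0.21 in crypts and -0.92 in villi on the log2 scale. The enteroendocrine share was 0.730% and 0.841% in crypts and 1.04% and 0.660% in villi, and the intervals of both ratios included 0. With every barcode thinned to 3000 UMIs, which left out 367, 393, 547 and 153 barcodes, the stem and cycling gate held 3.29% and 5.37% in crypts and 6.77% and 18.8% in villi, the immune gate 0% and 12.3% in villi, and the enterocyte gate 58.6% and 22.9% in villi. The enterocyte gate is a cut through a continuum. In HFD VSG villi 1063 barcodes were past its limit of 5% of UMIs. Within 1.5-fold of that limit, on either side of it, lay 851 barcodes. In sums over a library, fewer cells of a type and less RNA per cell cannot be told apart.

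**Figure D1:**
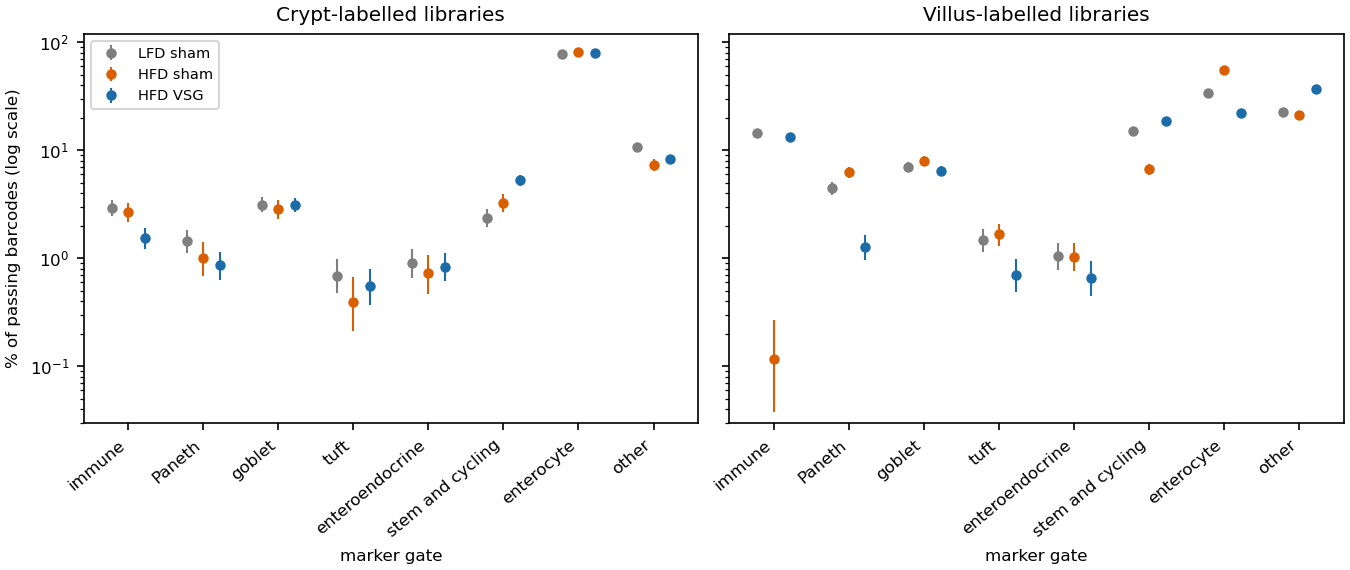
Share of passing barcodes (percent, log axis) in each marker-gated class for HFD sham and HFD VSG, crypts and villi, with exact 95% binomial intervals as bars. The villus libraries differ in the immune class (0.116% in sham, 13.3% after VSG), the stem and cycling class (6.67% and 18.6%) and the Paneth class (6.30% and 1.28%), while the crypt libraries lie closer together.

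A gene was counted when its level in CPM (its UMIs per 1000000 UMIs of the library) differed at least 2-fold, a log2 ratio of 1, in the same direction in both fractions. By that rule 53 genes were higher after VSG, 0.470% of the 11287 compared, and 33 were lower, 0.292%. On the median-of-ratios scale, which centres the genes of each pair, the split was 31 higher and 40 lower, and on the CPM scale the median gene stood at 0.15 in crypts and 0.04 in villi. At any size, 5105 genes (45.2%) were higher in both fractions and 1878 (16.6%) lower in both, the shares against which the counts of lists at any size below are read. Other genes were past the fold in opposite directions: 19 genes (0.168%) were higher in crypts and lower in villi, and 68 (0.602%) were lower in crypts and higher in villi. Without the immune-gated barcodes these counts were 18 and 1. Taken alone, the crypt pair had 158 genes higher (1.40%) and 107 lower (0.948%), and the villus pair, where the makeup differed most, had 1019 higher (9.03%) and 798 lower (7.07%). Just inside the limit were Sox4 at 1.01 in crypts and 1.10 in villi and Gsta4 at -1.01 and -1.34, and just outside it was Aldh1a1 at -0.99 and -1.84.

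**Figure D2:**
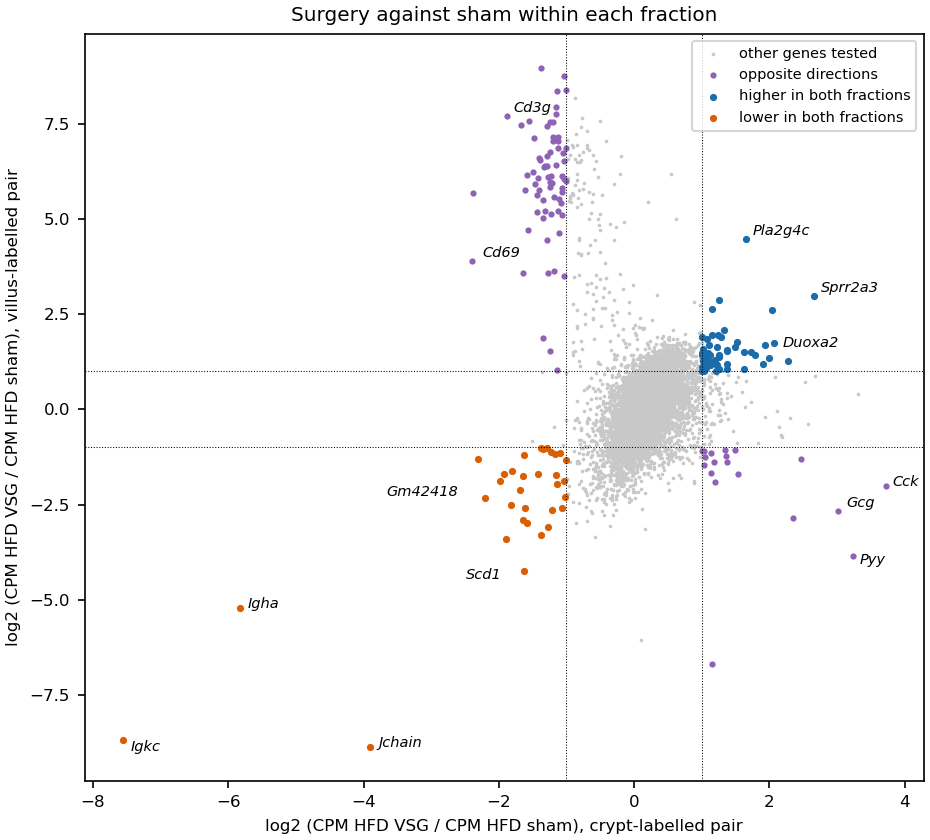
Each point is 1 of the 11287 genes, placed by its log2 ratio of HFD VSG over HFD sham CPM in crypts (horizontal) and in villi (vertical), with the genes past 2-fold in the same direction coloured and the limits drawn as lines. The villus ratios spread more widely than the crypt ratios, and 53 genes fall in the upper right corner and 33 in the lower left.

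To set aside the makeup as far as the gates allow, the same ratio was taken among enterocyte-gated barcodes alone. There 10629 genes were compared, of which 51 (0.480%) were at least 2-fold higher in both fractions and 31 (0.292%) at least 2-fold lower. Of the 53 genes higher in the whole libraries, 31 had enough UMIs within the gate, and 18 of those were past 2-fold there. Of the 33 lower, 28 were measured and 19 were past it. Gated values are given below for some of the genes.

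The first group of higher genes belongs to the surface and its defence. Sprr2a3 encodes a small proline-rich protein of the epithelial surface (chr3:92285417-92291405). It stood at 7.87 CPM in HFD sham crypts and 49.7 in HFD VSG crypts, and at 2.58 in HFD sham villi and 20.2 in HFD VSG villi. The log2 ratios were 2.66 [2.49, 2.83] in crypts and 2.97 [2.73, 3.21] in villi. Among enterocyte-gated barcodes the Sprr2a3 ratio was 2.81 in both fractions, and LFD sham libraries read 7.60 in crypts and 2.99 in villi, near the HFD sham values. The UMIs were spread over 753 barcodes in HFD VSG crypts and 294 in HFD VSG villi. Sprr2a3 has near-identical neighbours, and how reads shared among them were assigned is uncertain.

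Duox2 makes the oxidase that releases hydrogen peroxide at the apical membrane, and Duoxa2 the partner it needs to leave the endoplasmic reticulum. Duox2 was at 5.75 CPM in HFD sham crypts, 17.7 in HFD VSG crypts, 5.33 in HFD sham villi and 11.1 in HFD VSG villi. Duoxa2 was at 2.58, 10.8, 1.92 and 6.47 CPM in the same order. In crypts and villi the log2 ratios were 1.62 [1.42, 1.83] and 1.06 [0.88, 1.24] for Duox2 and 2.07 [1.77, 2.38] and 1.75 [1.46, 2.04] for Duoxa2. In the enterocyte gate the Duoxa2 ratios were 2.38 and 1.97 and the Duox2 ratios 1.80 and 1.66. LFD sham villi held 9.39 CPM of Duox2, between the HFD sham and HFD VSG villi, and LFD sham crypts held 4.29. With barcodes held to at most 10% mitochondrial UMIs the Duoxa2 crypt ratio was 0.95, and over 12 alternatives Duox2 lay between 0.56 and 1.47 in villi and passed the limit in both fractions in 8.

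The Duox2 and Duoxa2 genes lie head to head on chromosome 2, their RefSeq starts 673 bases apart, and the sequences before those starts are shown because both genes were higher. They come from RefSeq on GRCm38.p6 (chr2:122298228-122298477, minus strand, for Duox2, and chr2:122298650-122298899, plus strand, for Duoxa2), each the 250 bases before the RefSeq start. In GENCODE the Duox2 gene extends to base 122298449, so most of its window lies within that gene model.
Duox2: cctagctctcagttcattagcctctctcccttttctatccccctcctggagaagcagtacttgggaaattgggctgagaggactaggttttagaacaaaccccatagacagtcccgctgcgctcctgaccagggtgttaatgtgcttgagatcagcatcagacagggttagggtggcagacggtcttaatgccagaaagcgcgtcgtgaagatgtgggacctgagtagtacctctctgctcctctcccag
Duoxa2: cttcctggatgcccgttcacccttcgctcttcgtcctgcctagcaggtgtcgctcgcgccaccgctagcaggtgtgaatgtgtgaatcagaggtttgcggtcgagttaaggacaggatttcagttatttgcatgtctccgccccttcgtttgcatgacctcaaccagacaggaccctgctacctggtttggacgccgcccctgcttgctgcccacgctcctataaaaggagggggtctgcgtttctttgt
Neither window held the antioxidant response core TGACNNNGC or the E2F site TTTCCCGC on either strand, which says only that these letters are absent from these bases.

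Of a list of 19 genes that epithelium is known to switch on in contact with microbes, 8 were measurable, and 3 were past the fold in both fractions, all higher, against 0.470% of all genes. The list's median log2 ratio was 0.65 in crypts and 0.69 in villi, beside 0.15 and 0.04 over all genes. The members past the fold were Sprr2a3, Duox2 and Duoxa2. Lypd8, which keeps flagellated bacteria from the epithelium, was at 0.57 and 0.78, and Nos2, the inducible nitric oxide synthase, differed in sign between fractions at 0.73 and -1.03. Pigr, which carries IgA across enterocytes, was at 0.13 and -0.60. Of the antibacterial lectins, Reg3g stood at -0.43 and -0.03 in the whole libraries and at -0.54 and 0.23 in the enterocyte gate. In the stem and cycling gate it was at 0.26 and 0.71, so its sign depended on the barcodes taken. Droplets with under 100 UMIs, which hold free RNA, had 940 to 1356 CPM of Reg3g, so its gated values are not read as levels of those cells. LFD sham libraries held 3532 CPM in crypts and 4059 in villi, above both operations. Reg3b stood at -0.44 and -0.91, and at -0.44 and -0.22 in the enterocyte gate. Immune-gated barcodes, whose share was lower in VSG crypts and higher in VSG villi, were not part of the enterocyte gate in which these ratios were repeated.

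**Figure D3:**
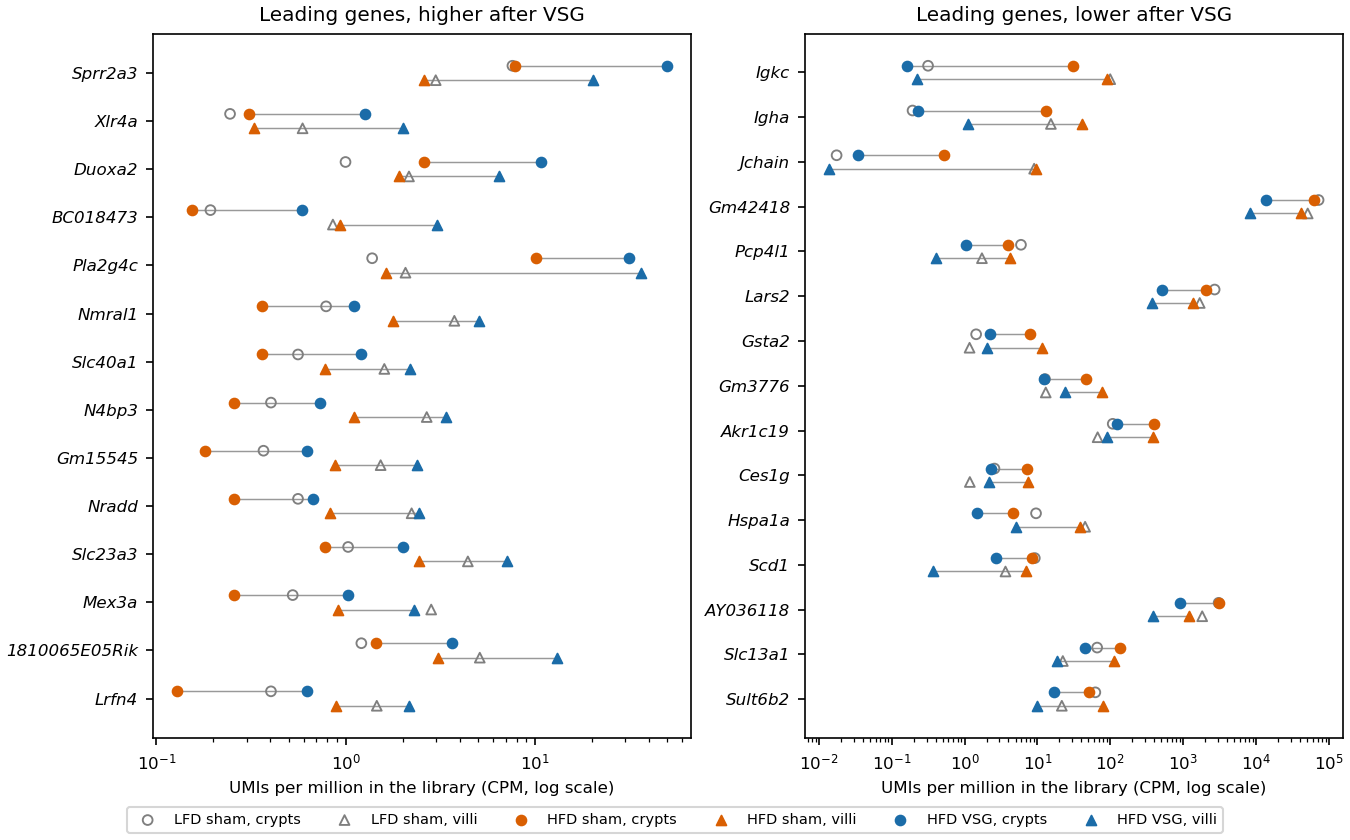
CPM (log axis) of genes with the widest shared difference in each direction, 1 point per library, with circles for crypts, triangles for villi, lines joining HFD sham to HFD VSG and open symbols for LFD sham. Sprr2a3, Pla2g4c and Duoxa2 sit to the right after VSG in both fractions, and Akr1c19, Gsta2, Scd1 and Slc13a1 sit to the left.

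Pla2g4c, a cytosolic phospholipase A2 that releases fatty acids from membrane lipids, had the widest gap of any of these genes in villi. Its level was 1.63 CPM in HFD sham villi and 36.5 in HFD VSG villi, a log2 ratio of 4.48 [4.19, 4.79]. In crypts it was 10.1 and 31.5 CPM, a ratio of 1.65 [1.49, 1.80]. The sham crypt level rested on few barcodes: 355 of its 390 UMIs, 91.0%, came from 3 barcodes, and 331 of the UMIs came from barcodes outside every class. Within the enterocyte gate Pla2g4c stood at 1.79 and 30.3 CPM in crypts and 1.16 and 29.2 in villi, log2 ratios of 4.08 and 4.66. LFD sham libraries read 1.38 in crypts and 2.07 in villi, close to the gated HFD sham values. After VSG its 2725 crypt UMIs lay in 227 barcodes and its 5285 villus UMIs in 338.

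Gsdmc2, a member of the gasdermin C genes, which in mouse intestine are expressed by epithelial cells and induced by type 2 cytokines, was at 3.46 CPM in HFD sham crypts, 8.25 in HFD VSG crypts, 4.43 in HFD sham villi and 32.7 in HFD VSG villi. Its ratios were 1.26 and 2.88, and 2.53 and 3.33 in the enterocyte gate. The related Gsdmc4 was at 8.82 and 16.4 CPM in crypts and 11.9 and 83.5 in villi, and Gsdmc3 had ratios of 0.97 and 2.73, so both missed the limit in crypts. The sham crypt levels rested on few barcodes: 3 barcodes held 59.0% of the Gsdmc2, 70.3% of the Gsdmc3 and 55.6% of the Gsdmc4 UMIs there. Summed over the 4 Gsdmc genes in the count matrices, the level was 13.2 and 26.5 CPM in crypts and 17.5 and 123 in villi, and 2.56 and 14.7 in LFD sham. All 3 measured genes were higher after VSG in both fractions at any size. Reads shared among these similar genes may be split between them, and the family was chosen after its values were seen.

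Genes of cholesterol synthesis were mostly higher. Mvd and Fdps were past the fold in both fractions, as were 0.470% of all genes. With no size limit, 17 of the 24 measured were higher in both fractions and 0 lower, beside 45.2% and 16.6% of all genes, with medians of 0.37 in crypts and 0.42 in villi. Mvd, which makes isopentenyl diphosphate, stood at 2.35 and 5.13 CPM in crypts and 5.31 and 14.2 in villi, ratios of 1.13 [0.80, 1.47] and 1.42 [1.25, 1.60]. Fdps, the farnesyl diphosphate synthase, was at 12.2 and 24.6 CPM in crypts and 29.1 and 77.9 in villi, ratios of 1.01 [0.87, 1.16] and 1.42. Median-of-ratios scaling and free RNA subtraction at the study's stated fractions took both genes below the limit. Their enterocyte-gated ratios were 1.11 and 1.73 for Mvd and 0.93 and 1.83 for Fdps. Sqle, at 0.92 and 0.81, Cyp51, at 0.85 and 0.60, and Idi1, at 0.64 and 0.80, lay on the same side below the limit.

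Slc40a1, the basolateral iron exporter ferroportin, was at 0.361 and 1.20 CPM in crypts and 0.773 and 2.19 in villi, with a crypt ratio of 1.73 [0.92, 2.66] and a villus interval of 1.05 to 1.99. In the enterocyte gate its ratios were 1.56 and 2.46. It was the only one of 25 vitamin, iron and metal genes past the limit, beside 0.470% of all genes past it upward. The metallothioneins Mt1, at 0.67 and 1.03, and Mt2, at 0.74 and 1.05, were higher without reaching the limit in crypts.

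Several other genes with a wide shared difference were measured at low levels. Xlr4a, an X-linked lymphocyte-regulated gene, was at 0.310 and 1.27 CPM in crypts and 0.326 and 2.01 in villi, ratios of 2.04 and 2.62, and 1.99 and 2.45 in the enterocyte gate. BC018473 was at 0.155 and 0.589 CPM in crypts and 0.928 and 3.02 in villi. The unnamed gene 1810065E05Rik was at 1.44 and 3.63 CPM in crypts and 3.09 and 13.1 in villi, ratios of 1.33 and 2.09, and 1.31 and 2.81 in the gate. Nmral1 (1.62 and 1.51), N4bp3 (1.63 in villi), Gm15545 (1.79 and 1.44), Nradd (1.38 and 1.56), Slc23a3 (1.37 and 1.54) and Lrfn4 (2.27 and 1.28) were also among the genes with the widest shared difference upward. With at most 10% mitochondrial UMIs these 6 genes fell below the limit in villi, at 0.73 to 0.99, and Nradd was at 0.89 in crypts with free RNA subtracted at the stated fractions. Of the other higher genes, the phosphatidate phosphatase Lpin1 had ratios of 1.25 and 1.37, and Fgfbp1, a carrier of fibroblast growth factors, was at 4.75 and 11.2 CPM in crypts and 13.6 and 52.3 in villi.

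Genes of cell division and stem cells were higher by smaller amounts. Of 21 genes of S phase, 1 was past the limit, 19 were higher in both fractions at any size, and the medians were 0.60 in crypts and 0.95 in villi. Of 20 genes of G2 and mitosis, 18 were higher in both at any size, with medians of 0.26 and 0.95. Of all genes, 0.470% were past the limit upward and 45.2% were higher in both at any size. Mcm3, a subunit of the helicase that unwinds DNA for replication, was at 2.61 and 5.96 CPM in crypts and 8.74 and 21.5 in villi, ratios of 1.19 and 1.30, below the limit with at most 10% mitochondrial UMIs or with free RNA subtracted at the stated fractions. All 6 measured Mcm genes were higher in both fractions, with sums of 27.4 and 45.1 CPM in crypts and 61.3 and 124 in villi. The same sum in LFD sham was 32.3 CPM in crypts and 121 in villi. Within the stem and cycling gate the Mcm3 ratios were 0.79 and -0.17. The gate's own share was 3.29% and 5.26% of crypt barcodes and 6.67% and 18.6% of villus barcodes, and its share of the villus UMIs was 8.42% and 21.6%. The part of these shares in the whole-library values was not tested.

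Of 16 stem cell genes, 2 were past the limit upward, Gkn3 and Ascl2, beside 0.470% of all genes. Past it downward was 1 gene, the injury-induced Clu at -1.16 and -1.72, beside 0.292% of all genes. The list's medians were 0.58 in both fractions. Ascl2 was at 0.95 in crypts under median-of-ratios scaling, and Clu was lost with predicted doublets removed and with no filters on barcodes. Ascl2, the transcription factor that maintains the stem cell state, was at 1.03 and 2.18 CPM in crypts and 2.25 and 8.09 in villi, ratios of 1.08 and 1.85. Gkn3, a gastrokine expressed in Lgr5-positive cells of the proximal intestine, was at 1.32 and 2.91 CPM in crypts and 3.13 and 12.1 in villi. Lgr5 itself was at 2.71 and 4.93 CPM in crypts and 5.02 and 9.35 in villi, ratios of 0.87 and 0.90, under the limit. In the stem and cycling gate Gkn3 stood at 26.8 and 48.0 CPM in crypts and 31.4 and 51.1 in villi, ratios of 0.84 and 0.70, and Ascl2 had ratios of 0.38 and 0.67. Gkn3 and Ascl2 are themselves markers of that gate, so these values come from counts that helped to choose its barcodes. In the enterocyte gate the list's medians were -0.12 and 0.09.

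**Figure D4:**
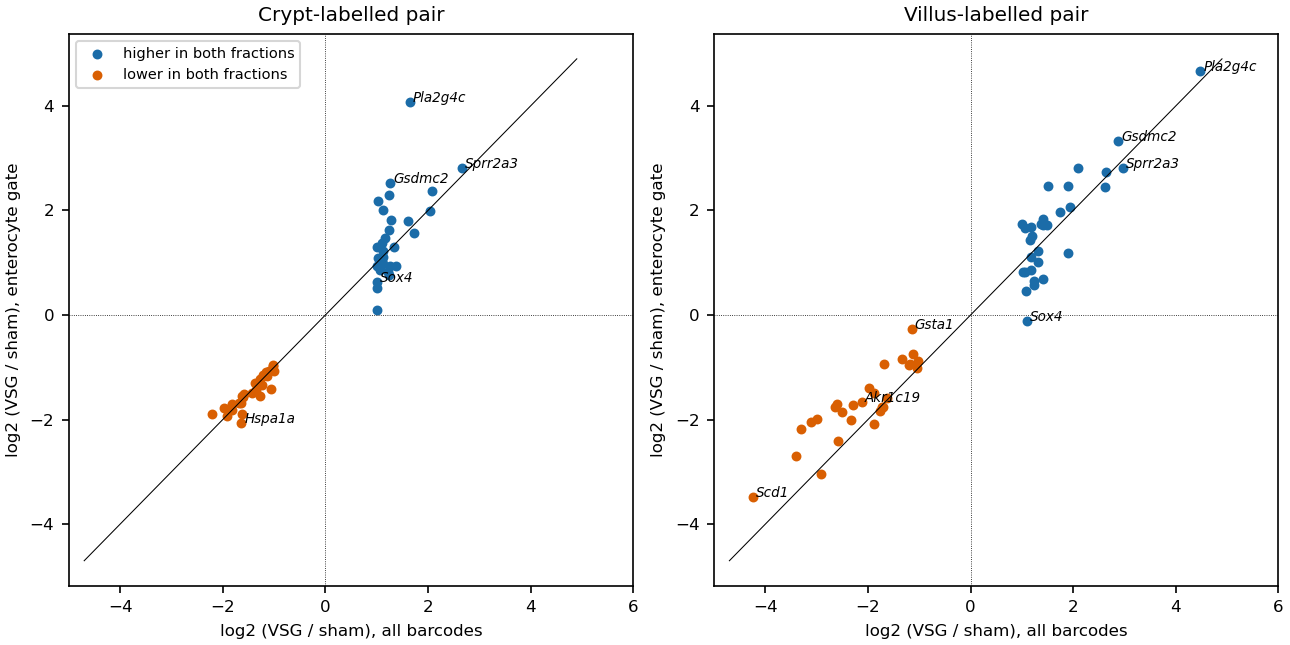
Log2 ratio of HFD VSG over HFD sham among enterocyte-gated barcodes against the ratio in the whole library, for the 31 higher and 28 lower genes measured in the gate, crypts and villi in separate panels, with the line of equal values. Sox4 in villi, at 1.10 in the whole library and -0.11 in the gate, is the 1 point that crosses 0, and Gsta1 in villi lies at -0.27 in the gate.

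Mex3a, an RNA-binding protein of slowly dividing crypt progenitors, was at 0.258 and 1.03 CPM in crypts and 0.911 and 2.30 in villi. Its upstream window is shown because it held the E2F site, the recognition sequence of factors that switch on S phase genes (capitals, here as its reverse complement, first base at position -92). The 250 bases are from RefSeq on GRCm38.p6, chr3:88531696-88531945, plus strand.
Mex3a: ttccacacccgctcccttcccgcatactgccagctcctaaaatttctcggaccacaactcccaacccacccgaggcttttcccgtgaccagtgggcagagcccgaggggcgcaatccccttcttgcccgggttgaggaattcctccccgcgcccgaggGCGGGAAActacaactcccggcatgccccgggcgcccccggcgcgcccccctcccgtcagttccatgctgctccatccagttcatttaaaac
Of the 86 genes past the limit in either direction, 67 had an entry in the promoter table. TTTCCCGC, searched on both strands in the 250 bases before the start, was present in 3 of 44 higher genes (6.82%: Mex3a, Tnfaip8l1 and Syce2) and 0 of 23 lower genes, and in 0.895% of all promoters. A gene was counted if any of its promoter entries held the site, whereas the last share is over single entries, so the shares are not counted alike.

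Several of the lower genes encode enzymes of foreign compound metabolism. Akr1c19, an aldo-keto reductase that reduces steroids and other carbonyl compounds, was the most abundant of those with a wide gap. It stood at 397 CPM in HFD sham crypts, 124 in HFD VSG crypts, 387 in HFD sham villi and 89.0 in HFD VSG villi. Its log2 ratios were -1.68 [-1.72, -1.65] in crypts and -2.12 [-2.15, -2.09] in villi. LFD sham libraries held 108 and 67.0 CPM, at or below the HFD VSG level. The enterocyte-gated ratios of Akr1c19 were -1.68 and -1.67, from 447 to 140 CPM in crypts and from 555 to 174 in villi. In droplets with under 100 UMIs, which hold free RNA rather than cells, Akr1c19 stood at 249 CPM in HFD sham crypts, 214 in HFD sham villi and 74.2 in HFD VSG villi, so its UMIs in other gates are not read as a level of those cells.

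Akr1c13, a close relative, was at 195 and 76.8 CPM in crypts and 186 and 90.3 in villi, ratios of -1.35 and -1.04. Akr1c12 at -0.67 and -0.25 and Akr1c14 at -0.65 and -1.43 were lower without passing the limit in both fractions. The 9 Akr1c genes in the count matrices, of which 4 were measured, summed to 774 and 315 CPM in crypts and 737 and 294 in villi, beside 335 and 226 in LFD sham. Reads shared between these related genes may be split uncertainly, and the sum does not depend on how they were split.

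The alpha-class glutathione S-transferases join glutathione to electrophiles and lipid peroxidation products. All 5 measured were past the limit, beside 0.292% of all genes past it downward. Gsta1 was at 408 and 192 CPM in crypts and 579 and 261 in villi, Gsta2 at 7.89 and 2.24 and at 11.4 and 2.01, and Gm3776 at 46.3 and 12.2 and at 76.2 and 23.6. Gsta3 was at 17.3 and 7.66 CPM in crypts and 19.7 and 8.69 in villi, and Gsta4 at 64.2 and 31.9 and at 101 and 39.9. The family summed to 543 and 246 CPM in crypts and 787 and 335 in villi, and LFD sham held 330 and 306. Gsta1, Gsta2 and Gm3776 are near-identical, so the division of reads among them is uncertain.

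In the enterocyte gate Gsta2 alone of these was past the limit in both fractions, at -1.82 and -1.85. Gm3776 was at -1.93 and -0.93, and Gsta1 at -1.08 in crypts and -0.27 in villi at 859 and 714 CPM. Gsta3 was at -1.15 and -0.94 and Gsta4 at -1.08 and -0.84. In whole libraries, Gsta1 and Gsta4 were past the limit in 8 of 12 alternatives and Gsta3 in 9. Over a list of 19 glutathione transferases of all classes, 0 were past the limit upward and 4 downward, beside 0.292% of all genes, 12 were lower in both fractions at any size, beside 16.6% of all genes, and the medians were -0.27 and -0.32. The list of 23 antioxidant genes outside this family had 0 genes past the limit in either direction and medians of 0.02 and 0.18.

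The window before Gsta3 is shown because it held the antioxidant response core TGACNNNGC, the recognition sequence of the NRF2 factor that governs many of these enzymes (capitals, first base at position -121). It is from RefSeq on GRCm38.p6, chr1:21240335-21240584, plus strand.
Gsta3: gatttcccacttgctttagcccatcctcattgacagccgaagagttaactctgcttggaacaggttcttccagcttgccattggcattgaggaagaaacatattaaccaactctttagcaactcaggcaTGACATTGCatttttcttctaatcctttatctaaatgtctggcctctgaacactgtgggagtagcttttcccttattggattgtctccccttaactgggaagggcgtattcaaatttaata
On both strands of the same windows, TGACNNNGC occurred in 6 of 23 lower genes (26.1%: Gsta3, Tph1, Edn1, Klf15, Lars2 and Jchain), in 7 of 44 higher genes (15.9%) and in 10.2% of all promoters. Here too a gene was counted by any of its promoter entries and the share over all promoters by single entries. The windows of Gsta1, Gsta2, Gm3776, Akr1c19, Akr1c13, Ces1g and Cyp2c29 held no match.

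The Ces1 carboxylesterases, which hydrolyse esters and stored lipid, were also lower in whole libraries. Ces1g was at 7.25 and 2.32 CPM in crypts and 7.35 and 2.17 in villi, Ces1f at 83.4 and 35.6 and at 128 and 58.8, and Ces1d at 19.9 and 7.42 and at 21.0 and 6.45. In the enterocyte gate the ratios were -1.68 and -1.83 for Ces1g and -1.33 and -0.74 for Ces1f. Ces1e was lower by less, at -0.78 and -0.50. All 8 Ces1 genes in the count matrices, those with too few UMIs to compare included, summed to 123 and 53.1 CPM in crypts and 178 and 82.6 in villi. The same sum in LFD sham was 57.7 and 63.1. Of 5 measured Ces2 genes, 0 were past the limit and 4 were lower in both fractions at any size, beside 0.292% and 16.6% of all genes. The Akr1c, Gsta and Ces1 families were chosen after their values were seen, and their near-identical members may share reads.

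Cyp2c29, a cytochrome P450 of drug and fatty acid oxidation, was at 12.3 and 4.75 CPM in crypts and 4.97 and 0.504 in villi, ratios of -1.37 and -3.30, and -1.30 and -2.18 in the enterocyte gate. It was 1 of 6 Cyp2c genes past the limit. Over 26 genes of xenobiotic metabolism other than the transferases, 1 was past the limit downward, beside 0.292% of all genes. At any size, 18 of the 26 were lower in both fractions, beside 16.6% of all genes. The list's medians were -0.11 in crypts and -1.09 in villi, where enterocyte-gated barcodes were 55.0% of the sham library and 22.4% of the VSG one. Within the enterocyte gate the medians were -0.10 and -0.50.

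Scd1, the desaturase that makes monounsaturated fatty acids, was at 8.33 and 2.69 CPM in crypts and 6.92 and 0.366 in villi. Its ratios were -1.63 [-1.88, -1.38] and -4.24 [-4.68, -3.83], and -1.54 and -3.49 in the enterocyte gate, with LFD sham at 9.20 and 3.64 CPM. Of 14 lipogenesis genes it was the only one past the limit, beside 0.292% of all genes past it downward, and the list's medians were 0.39 and 0.28. Slc13a1, the brush border sodium and sulfate cotransporter, was at 136 and 44.8 CPM in crypts and 111 and 18.3 in villi, ratios of -1.61 and -2.60, and -1.57 and -1.71 in the gate. The sulfotransferase Sult6b2 was at 51.1 and 17.0 CPM in crypts and 78.7 and 9.88 in villi, ratios of -1.59 and -2.99 (-1.52 and -1.98 in the gate), and Pcp4l1, a calmodulin-binding peptide, at 3.95 and 1.06 and at 4.26 and 0.400.

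Other lower genes were of mixed kinds. Areg, an epidermal growth factor receptor ligand, was at 79.5 and 36.0 CPM in crypts and 92.8 and 23.8 in villi, and Edn1, the vasoconstrictor endothelin, at 38.6 and 18.9 and at 29.4 and 7.95. Klf15, a transcription factor raised by fasting and glucocorticoids, was at 6.68 and 2.89 CPM in crypts and 5.17 and 0.821 in villi. Hspa1a, an inducible heat shock chaperone, was at 4.57 and 1.47 CPM in crypts and 38.3 and 5.09 in villi. Its near-identical partner Hspa1b had ratios of -1.06 and -2.59, and reads may be split between them. They were the 2 of 11 heat shock genes past the limit, beside 0.292% of all genes past it downward, and the list's medians were 0.00 and -0.30. The list's sum, set mostly by other, more abundant members, was 2480 and 2697 CPM in crypts and 3800 and 5146 in villi, and the immediate early genes, which tissue dissociation induces, were at 3602 and 3276 and at 3084 and 2271. Fkbp5, a glucocorticoid-induced cochaperone, was at 6.01 and 2.64 CPM in crypts and 7.59 and 5.56 in villi, ratios of -1.19 and -0.45. In the enterocyte gate the Fkbp5 ratios were -1.85 and -2.74, at 3.98 and 1.11 CPM in crypts and 4.55 and 0.680 in villi. Whole LFD sham libraries were far higher, at 72.3 and 43.2 CPM.

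Tac1 and Tph1 mark enterochromaffin cells, which make tachykinins and serotonin. Tac1 was at 4.08 and 0.821 CPM in crypts and 6.77 and 2.73 in villi, and Tph1 at 6.76 and 2.61 and at 2.11 and 1.05. With predicted doublets removed, the villus ratios were 0.10 for Tac1 and 0.11 for Tph1. Within enteroendocrine-gated barcodes, of which there were 24 and 44 in crypts and 45 and 31 in villi, Tac1 stood at 1064 and 170 CPM in crypts and 1162 and 704 in villi, and Tph1 at 1684 and 528 and at 357 and 279. Both genes are among the markers that define this gate, so their gated levels come from counts that helped to choose its barcodes. Of the 13 hormone genes measured, 4 were lower in both fractions at any size (Tac1, Tph1 and the granin genes Chga and Chgb), 1 was higher in both (Gip), and 8 differed in sign. Among the latter, Cck was at 2.97 and 39.1 CPM in crypts and 47.1 and 11.6 in villi, Gcg at 2.24 and 18.3 and at 38.6 and 6.09, and Pyy at 3.15 and 29.7 and at 25.1 and 1.74. Few barcodes set these levels. Of the 1580 Gcg UMIs in HFD VSG crypts, 1457 (92.2%) came from 3 barcodes. The median over 13 hormone genes was 0.80 in crypts and -1.31 in villi.

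Of 4 antibody genes measured, 3 were far lower after VSG in both fractions, beside 0.292% of all genes past the limit downward. For each of the 3, nearly all UMIs in HFD sham crypts came from at most 3 barcodes. For Igkc and Jchain this was also so in a sham villus library. Igkc, the kappa light chain constant region, was at 30.5 and 0.162 CPM in crypts and 89.7 and 0.221 in villi, and Igha, the IgA heavy chain, at 13.1 and 0.231 and at 41.1 and 1.11. In HFD sham crypts 1167 of 1183 Igkc UMIs (98.6%) came from 1 barcode, and in HFD sham villi 5137 of 5220 (98.4%) came from 2. For Igha 493 of 509 UMIs in HFD sham crypts (96.9%) came from 3 barcodes. Its villus ratio rested on few barcodes too, and was 0.56 without the 3 highest of each library. Igha and Jchain were each past the limit in both fractions in 8 of 12 alternatives. Neither HFD VSG library had a barcode with 100 Igkc UMIs. LFD sham stood at 0.315 CPM in crypts and 99.7 in villi, so that the gene varied as much between fractions of 1 pool as between operations. Jchain, which joins IgA into dimers, had 20 UMIs in HFD sham crypts and 560 in HFD sham villi, against 3 and 2 after VSG. Ighm, the IgM heavy chain, went the other way in villi, with 0 UMIs in HFD sham and 808 in HFD VSG, at least 6.76 higher on the log2 scale, and was at -1.24 in crypts.

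The most abundant of the lower genes, Gm42418, AY036118 and Lars2, belong to the list kept as a sign of RNA quality. Gm42418 and AY036118 overlap the ribosomal RNA repeat. Gm42418 stood at 62574 and 13521 CPM in crypts and 41808 and 8307 in villi, ratios of -2.21 and -2.33, and AY036118 at 3131 and 892 and at 1191 and 387. Lars2, the mitochondrial leucyl-tRNA synthetase, was at 2032 and 515 CPM in crypts and 1363 and 368 in villi. The list of ribosomal RNA overlaps and nuclear transcripts summed to 78326 and 24654 CPM in crypts and 54365 and 14971 in villi, and to 91130 and 65543 in LFD sham, so the HFD VSG libraries were the lowest of the 3 conditions. The 48 ribosomal protein genes were higher in both fractions without exception at any size, with 0 past the limit, and summed to 34246 and 47854 CPM in crypts and 60547 and 150045 in villi. Mitochondrially encoded genes summed to 119094 and 123294 CPM in crypts and 107761 and 78110 in villi.

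**Figure D5:**
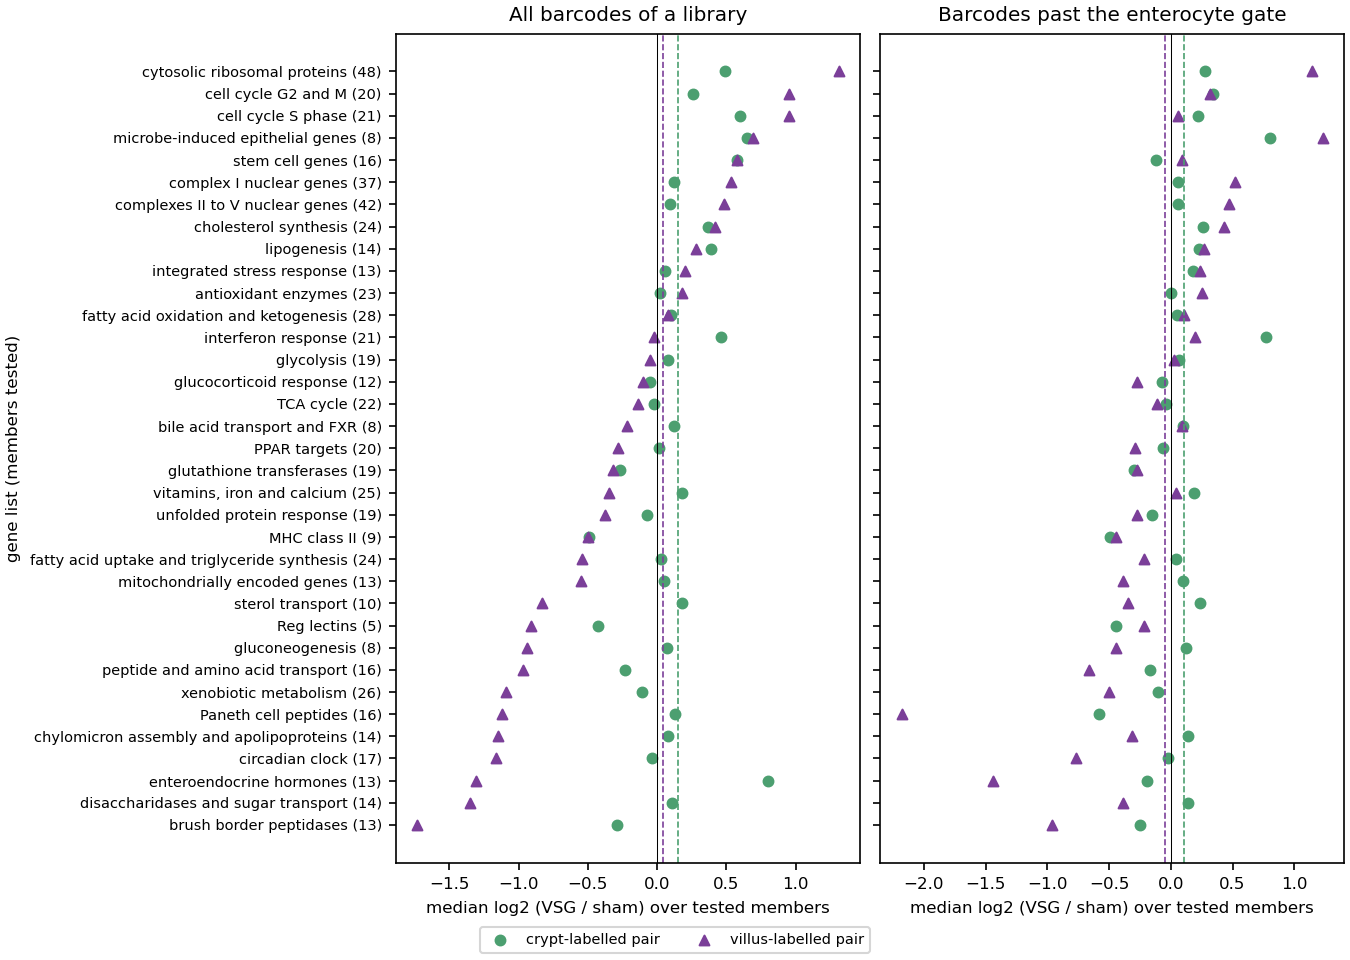
Median log2 ratio of HFD VSG over HFD sham for each gene list, circles for crypts and triangles for villi, in all barcodes (left) and in enterocyte-gated barcodes (right), with dashed lines at the median of all genes (0.15 and 0.04 on the left, 0.11 and -0.05 on the right). On the left, the cell division, stem, microbe-induced and cholesterol synthesis lists lie above the all-gene median in both fractions, and on the right the stem list lies below it in crypts at -0.12. The absorptive lists lie below it in villi, by less in the gate.

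Absorptive genes were lower after VSG in the libraries labelled villi. In those labelled crypts the lists of sugar, fat and sterol handling stood near the median gene, and the peptidases and peptide transporters below it. Of 13 brush border peptidases, 11 were lower in both fractions at any size, beside 16.6% of all genes, and 0 were past the limit, with medians of -0.29 in crypts and -1.73 in villi. The 14 disaccharidase and sugar transport genes had medians of 0.11 and -1.35, the 14 chylomicron genes 0.08 and -1.15, and the 24 genes of fat uptake and triglyceride synthesis 0.03 and -0.54. Peptide transport stood at -0.23 and -0.97, and sterol transport at 0.18 and -0.83. Sis, which encodes sucrase-isomaltase, was at 0.24 and -1.54, Cd36, a fatty acid transporter, at 0.02 and -1.91, and Fabp1 at 0.13 and -0.14. Apoa4 was at 0.43 in crypts and lower after VSG in villi, at 2961 CPM in HFD sham and 1047 in HFD VSG. Enterocyte markers summed to 90296 and 90381 CPM in crypts and 60458 and 33352 in villi. Villus tip markers summed to 2390 and 1884 CPM in crypts and 874 and 343 in villi. Within the enterocyte gate the villus medians were closer to 0, at -0.96 for the peptidases, -0.39 for disaccharidases and sugar transport, -0.31 for the chylomicron genes, -0.22 for fat uptake, -0.66 for peptide transport and -0.35 for sterol transport.

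Energy metabolism showed little in crypts. The 37 nuclear genes of complex I had medians of 0.12 in crypts and 0.53 in villi, with 30 higher in both fractions at any size (45.2% of all genes were), and the 42 genes of complexes II to V had 0.09 and 0.48. Glycolysis was at 0.08 and -0.05, and the tricarboxylic acid cycle at -0.02 and -0.14. Of single genes of this kind, Gapdh was at 0.36 in crypts and -0.05 in villi, Ldha at 0.08 and 0.15, and Cox7a2 at 0.15 and 0.64. Outside energy metabolism, Gpx4 stood at 0.02 and -0.30 and Prap1 at 0.17 and -0.20. Among mitochondrially encoded genes mt-Co1 stood at 0.10 and -0.25, mt-Nd6 at -0.69 and -2.93, and mt-Atp8 at -0.44 and -2.77. Lists of 9 MHC class II genes stood at -0.49 and -0.50, with H2-Ab1 at 37.9 and 21.6 CPM in crypts and 18.7 and 8.43 in villi. The 21 interferon-induced genes were at 0.46 in crypts and -0.02 in villi, and 0.77 and 0.20 in the enterocyte gate. The 17 clock genes were at -0.04 and -1.16. None of these 7 lists had a gene past the limit in both fractions. Of the remaining lists, 20 PPAR targets stood at 0.01 and -0.28, 28 genes of fatty acid oxidation and ketogenesis at 0.10 and 0.08, 16 Paneth cell peptides at 0.13 and -1.12 (Lyz1 at 0.07 and -1.78), 5 Reg lectins at -0.43 and -0.91, 8 genes of bile acid transport at 0.12 and -0.22, and 8 of gluconeogenesis at 0.07 and -0.94. The stress lists were close to the median gene in crypts, with the unfolded protein response at -0.07 and -0.38, the integrated stress response at 0.06 and 0.20, and the glucocorticoid response at -0.05 and -0.10.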

How the data were processed

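The authors aligned 10x Genomics 3′ reads to mm10 with Cell Ranger 6.0.0, per the labels, and deposited filtered matrices of raw UMI counts, 1 per library. Counts were used as deposited. Barcodes with at least 750 genes and at most 20% mitochondrial UMIs were kept, UMIs were summed per library, and log2 ratios of CPM were taken within each fraction for every gene that averaged 100 UMIs or more per library (20 or more within a class). Sums of 0 to 2 UMIs were set to 3. Intervals are 95% exact conditional binomial intervals and, as with the binomial intervals of shares, cover counting error only. Doublets were not removed, except as an alternative. Marker classes were gated at 0.5% of UMIs (immune, enteroendocrine), 0.3% (tuft, stem and cycling), 10% (Paneth), 3% (goblet) and 5% (enterocyte), and class levels are CPM of UMIs summed over the class.

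With 1 pooled library per condition and fraction no p-value was computed. Named genes were the 15 widest shared log2 ratios in each direction, up to 4 past the limit per list, a fixed panel, and the 3 furthest apart each way. Families and other examples were added after their values were seen. The members and lists were chosen with earlier results of these data known. Alternatives were other scalings, folds, minimums, barcode filters, doublet removal, free RNA subtraction and left-out classes or barcodes. The procedure was tested on simulated data. Tools were Python 3.11.15, numpy 2.4.6, scipy 1.17.1, pandas 2.3.3, scanpy 1.11.5 and matplotlib 3.10.9. Gene positions came from GENCODE on GRCm38 and promoter sequences from RefSeq on GRCm38.p6, with positions counted back from -1 at the base before the start. HFD sham libraries also served the comparison of diets, which was not made here. Some genes named by the rule are not reported here.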

Additional observations from a re-analysis of the deposited data

Results flagged for a closer look

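A total of 6 genes lay far apart in opposite directions in the 2 fractions. The difference between fractions was not tested, since each value rests on 1 library a side. Of hormone genes, Pyy had log2 ratios of HFD VSG over HFD sham of 3.24 in crypts and -3.85 in villi, Gcg of 3.02 and -2.66, and the granin Scg2 of 2.35 and -2.84. In HFD sham villi 92.0% of Pyy UMIs came from 3 barcodes, and in HFD VSG villi 831 of 883 Gcg UMIs came from 1. Of lymphocyte genes, Cd69 stood at -2.40 and 3.90, Cd3g, a T cell receptor subunit, at -1.88 and 7.71, and Bcl2a1b at -2.38 in crypts and at least 5.68 in villi, where HFD sham held 0 UMIs and was set to 3. Immune-gated barcodes were 2.68% and 1.53% of the crypt libraries and 0.116% and 13.3% of the villus libraries, and LFD sham had 3600 Cd3g UMIs in villi and 813 in crypts.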

How the results depend on the processing

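No paired analysis was possible because each condition had 1 library per fraction, and no replicate could be left out. Against 53 genes higher, 33 lower and 87 opposite, median-of-ratios scaling gave 31 higher, the mean of per-barcode CPM 116 higher and 148 opposite, a log2 fold of 0.5 gave 625, 140 and 285, a minimum mean of 20 UMIs 131, 61 and 221, and no minimum 146, 131 and 314. With 1500 genes a barcode 48 were opposite, with at most 10% mitochondrial UMIs 82 were lower, and with no barcode filters 106 were higher and 46 opposite. Free RNA subtracted at the study's stated fractions gave 134 opposite and shared 29 of the 53 higher and 30 of the 33 lower genes. The stated fractions were far higher for HFD sham than for HFD VSG libraries. Leaving out immune-gated barcodes gave 19 opposite, keeping only barcodes outside the other classes gave 119 higher and 1 opposite, and leaving out each gene's 3 highest barcodes gave 97 higher. At 10% mitochondrial UMIs 18 of the 53 and 16 of the 33 genes were shared with the main counts. Past the limit in all 12 alternatives that changed the libraries were, among others, Sprr2a3, Xlr4a, Pla2g4c, Slc40a1, Akr1c19, Gsta2, Cyp2c29, Scd1 and Slc13a1, while Fdps passed in 6, Mvd, Ascl2, Clu, Mcm3 and Nradd in 10, Ces1g and Mex3a in 11, Gsta1, Gsta4 and Duox2 in 8, and Gsta3 and Ces1f in 9. In the enterocyte gate a mean of 100 UMIs left 23 higher. Class log2 ratios that moved were Paneth villi, -1.73 at 1500 genes, and at 10% mitochondrial UMIs enteroendocrine villi, -1.42, tuft crypts, 1.69, Paneth villi, -2.96, goblet villi, -1.05, stem and cycling villi, 1.03, and enterocyte crypts, -0.48. Gates multiplied by 1.5 gave enterocyte crypts 0.11 and villi -1.61, and divided by 1.5 villi -1.07. Signs turned for Igha in villi, 0.74 at 10% mitochondrial UMIs and 0.56 without the 3 highest barcodes, for Tac1, 0.10, and Tph1, 0.11, in villi without predicted doublets, and for AY036118 in crypts, 12.93 with free RNA subtracted, where the sham sum was subtracted to the floor. Cd3g in crypts was 0.04 without immune-gated barcodes. In barcodes outside the other classes the crypt ratios were 0.01 for Cd3g, -0.91 for Gkn3, -1.13 for Gcg and Scg2, -0.43 for Cck and -0.23 for Pyy. The causes were not tested. Setting the left-out barcodes by gene and the gate alternatives were chosen after seeing the data. Genes under 1 CPM in HFD sham, such as Slc40a1, are limited by depth.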
